A study of Nicotiana benthamiana with 12 samples.

Results

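A group of 64 genes of Nicotiana benthamiana, out of 45796 in both count tables, was chosen by measured values. Levels of these genes were higher with abscisic acid (ABA) in wild type (WT) seedlings, and were close in WT and in a line labelled pent1 without ABA. Their difference between ABA and mock in pent1 was under a set limit. The values that chose them were log2 differences of group levels, where a level is log2(mean CPM + 0.5) and CPM is the count scaled to a library total of 1000000. The WT difference between ABA and mock had to be at least 1, the mock difference between the genotypes had to be under 0.5 in either direction, and the pent1 difference between ABA and mock had to be under 0.5. Of 1334 genes that met the first limit, 723 also met the second, and 64 of those (8.85%) met all 3. A limit of 0.5 on this scale allows some rise, so a gene can meet the rule and still respond to ABA in pent1.

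The study treated seedlings of the LAB strain, moved from plates to liquid medium 10 days after germination and kept there for 10 days, with fresh medium holding 10 µM ABA or, as mock, 0.1% of the solvent DMSO. Whole seedlings were collected after 3 h. The 4 groups were WT mock, WT ABA, pent1 mock and pent1 ABA, with 3 libraries each, which the submitters call biological replicates. Which gene is altered in pent1, how many lines it stands for and how many seedlings went into a library are not stated in the labels. Each genotype has its counts in a table of its own, so that genotype and anything else in which the tables differ cannot be told apart. The files do not pair gene IDs with names, so that genes are given by ID and no role can be stated for any of them.

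As background, known mainly from Arabidopsis, ABA is the hormone of drought stress and seed dormancy. It binds soluble receptors of the PYR/PYL/RCAR family, and the bound receptors block a group of protein phosphatases. The phosphatases then no longer hold back SnRK kinases, which activate bZIP transcription factors and, through them, ABA-responsive genes such as those of late embryogenesis abundant proteins. Several receptor genes act side by side in this pathway.

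Libraries held 18199288 to 19678708 counts. At this depth 1 CPM stood for about 18 to 20 counts in a library, and 25 of the 64 genes had a WT mock mean under 1 CPM. All sums of counts are from whole seedlings, where fewer cells of a type and less RNA per cell cannot be told apart. The 64 genes together took 428 ± 4.06 CPM in WT mock and 985 ± 46.9 CPM with ABA in WT, and 518 ± 35.3 CPM in mock and 658 ± 29.4 CPM with ABA in pent1 (SD, n = 3). The same order held in the median gene. Set against each gene's WT mock level, the median log2 level was 1.16, 1.15 and 1.07 with ABA in WT. In pent1 it was 0.33, 0.11 and 0.15 in mock and 0.55, 0.52 and 0.53 with ABA. The 3 pent1 ABA libraries thus lay above the 3 pent1 mock libraries and below the 3 WT ABA libraries, with no overlap between groups. Over all 41657 genes with a count, these medians were between -0.05 and 0.09 in the 12 libraries. The first pent1 mock library was the highest of its group in both. Without it the rule found 56 genes, 45 of them among the 64.

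**Figure D1:**
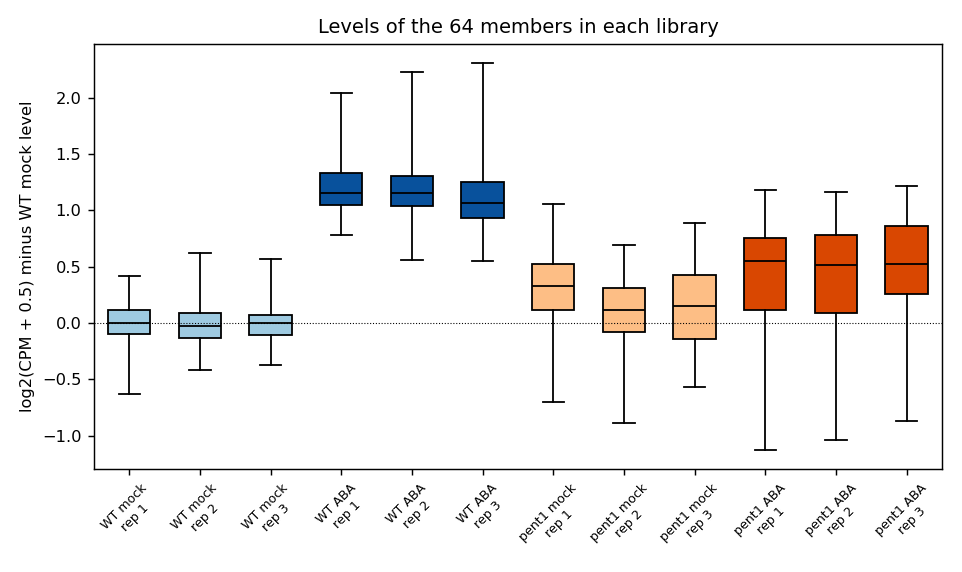
Levels of the 64 genes in each of the 12 libraries, as log2(CPM + 0.5) minus the gene's WT mock level (vertical axis). Boxes span the 25th to the 75th percentile with the median as a line, and whiskers reach the lowest and highest gene. The medians of pent1 ABA (0.52 to 0.55) lie between those of pent1 mock (0.11 to 0.33) and WT ABA (1.07 to 1.16).

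The description of these genes as having lost their ABA induction was therefore met only in part. The pent1 difference was above 0 in 58 of the 64 genes and below 0 in 6, with a median of 0.37 and a range of -0.74 to 0.49, against a median of 1.09 and a range of 1.00 to 2.11 in WT. As a share of the WT difference on this log2 scale, the pent1 difference had a median of 28.8%. It was at least 25% of the WT difference in 37 genes and under 10% in 11. With CPM taken relative to TMM-scaled library sizes, which correct for differences in composition, the median pent1 difference of the same 64 genes was 0.43. In CPM, the pent1 ABA mean lay above the midpoint of the WT mock and WT ABA means for 23 genes, and below the WT mock mean for 9.

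**Figure D2:**
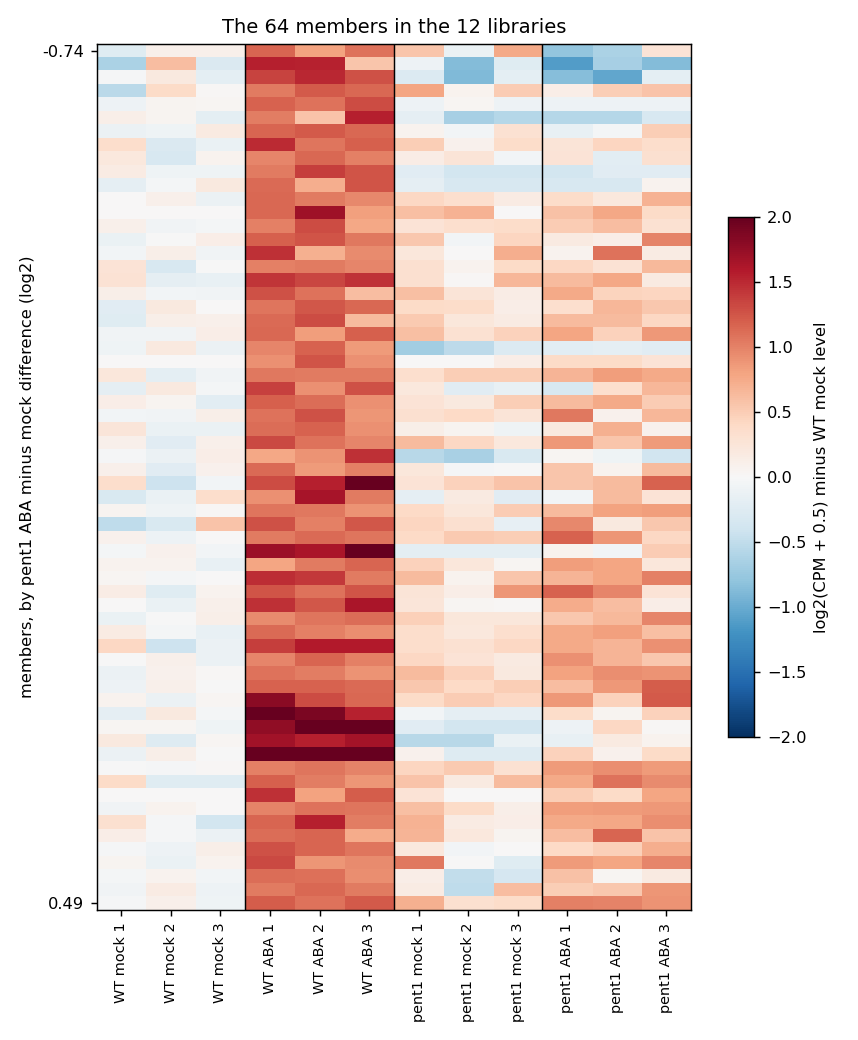
The 64 genes (rows, ordered by the pent1 difference between ABA and mock, from -0.74 at the top to 0.49 at the bottom) in the 12 libraries (columns). Colour gives log2(CPM + 0.5) minus the gene's WT mock level, with values beyond 2 at the end colour. The 3 WT ABA columns are red throughout, and most rows are a paler red in the pent1 ABA columns.

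The 64 genes formed the lower end of a continuous range. Among the 723 genes raised in WT from close mock levels, the pent1 difference was below 0 in 6, from 0 to 0.25 in 15, from 0.25 to 0.5 in 43, from 0.5 to 0.75 in 99, from 0.75 to 1 in 130 and higher in the rest, so no gap set the 64 apart. The other 659 had a median pent1 difference of 1.21, or 78.2% of their WT difference. Small WT responses filled the group. Of 255 genes with a WT difference of 1 to 1.25, 48 were members (18.8%), whereas 2 of 193 genes with a WT difference of 2 or more were (1.04%). The median WT difference was 1.09 in the members and 1.48 in the other 659. Levels were lower as well, with a median WT mock mean of 1.70 CPM in the members and 2.89 CPM in the other 659. These values are on the scale that chose the genes and are given as a description.

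**Figure D3:**
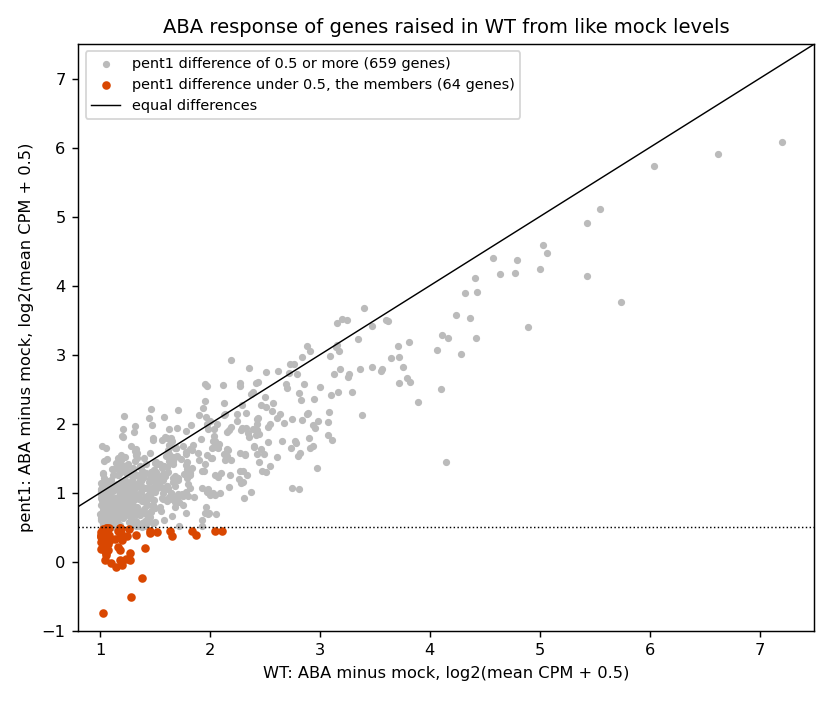
Log2 difference between ABA and mock in WT (horizontal) and pent1 (vertical) for the 723 genes raised in WT from close mock levels. Orange points are the 64 members, grey points the other 659, the solid line marks equal differences and the dotted line the limit of 0.5. Most members crowd at WT differences just above 1 and pent1 differences just under 0.5, with no gap to the grey points.

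Nearness to the limits was common. Of the 64 genes, 33 had a WT difference within 0.1 of its limit, 23 a pent1 difference within 0.1 of its limit and 21 a mock difference within 0.1 of its limit, and 52 met at least 1 of these. No gene lay at least 0.25 inside all 3 limits. At the WT limit, the nearest gene inside had a difference of 1.00 and the nearest outside 0.99. At the mock limit the nearest inside had -0.49 and the nearest outside 0.51. At the pent1 limit the nearest genes on each side had 0.49 and 0.50.

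Mock levels were close by the rule but leaned one way in the libraries that chose the genes. A high pent1 mock value lowers the pent1 difference, so the rule itself favours genes with such a value. The pent1 mock mean was above the WT mock mean in 48 of the 64 genes, with a median difference of 0.31 and a range of -0.49 to 0.49. The other 659 genes had a median mock difference of 0.13, and all genes with a count 0.04. In 21 members (32.8%) the 3 pent1 mock libraries all lay above the 3 WT mock libraries, against 22.5% of all genes with a count, and in 6 (9.38%) they all lay below, against 17.6%. Under mock, 11 of the 61 members tested were called higher in pent1 and 2 lower by the quasi-likelihood test fitted on all genes, where 32.8% of all genes were called in either direction. A call here means a Benjamini-Hochberg adjusted p under 0.05 over all genes tested. The members' share is low by construction, since the rule bars larger mock differences. Without WT mock replicate 2 or 3 the number called in either direction was 7, and without pent1 mock replicate 2 it was 6, while that of all genes went from 11158 to 8558, 8920 and 9789.

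Counts of calls in the other comparisons are given beside those of all genes, and since the same contrasts chose the members, nothing is read from them. With ABA in WT, all 60 members tested were called higher, where 18.6% of all genes were, and in 63 of 64 the WT ABA libraries all lay above the WT mock libraries (18.5% of all genes with a count). The exception was NbL02g23200, and 4 members had too few counts to be tested. Some of the 60 were abundant enough for the test only through WT ABA, the group in which the rule made them high. The set of 60 was thus itself shaped by that group. With ABA in pent1, 11 of 50 members tested were called, all of them higher, and 14 had too few counts to be tested, where 11.1% of all genes were called in either direction. The 39 not called are not thereby shown to be without a response. The number called was 4 without pent1 mock replicate 2 and 7 without pent1 mock replicate 3, while that of all genes went from 3678 to 3023 and 2593. In 22 of the 64 genes the pent1 ABA libraries all lay above the pent1 mock libraries (9.10% of all genes with a count), in 42 they overlapped, and in none did they all lie below.

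Between the genotypes under ABA, 39 of 61 members tested were called lower in pent1, where 14.6% of all genes were. The 3 limits together put the mean level of pent1 ABA below that of WT ABA in every member. The direction was thus fixed by the rule, and the highest difference was -0.11. Here too, some members had enough counts to be tested only through WT ABA. The pent1 ABA libraries all lay below the WT ABA libraries in 50 of the 64 genes (20.3% of all genes with a count), and the median difference was -0.62. In 49 genes the 3 WT ABA libraries lay above all of the other 9 libraries (4.10% of all genes with a count), and 31 of these had overlapping pent1 mock and pent1 ABA libraries. A test of the difference of responses called 19 of 61 members with a smaller response in pent1, where 2.17% of all genes were called in that direction. The rule fixed this direction as well, with a highest difference of -0.54 on its scale. The count of 19 depended on single libraries. Leaving out WT mock replicate 1, 2 or 3 gave 11, 2 or 2 genes, and leaving out WT ABA replicate 1, 2 or 3 gave 2, 6 or 8. Leaving out replicate 1 or 3 of pent1 mock gave 11 or 8, and leaving out replicate 2 or 3 of pent1 ABA gave 6 or 37. The calls over all genes in that direction moved as well. They numbered 737 with all libraries, 251 to 566 in the fits that gave 2 to 11 members, and 2864 in the fit that gave 37.

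The most abundant members differed among themselves in pent1. The most abundant with ABA, NbL07g03950, stood at 39.6, 40.5 and 48.8 CPM in the WT mock libraries and at 97.2, 101 and 96.1 CPM with ABA. The pent1 libraries held 45.1, 41.4 and 53.3 CPM in mock and 38.7, 42.0 and 60.9 CPM with ABA. The WT ABA libraries lay above all others, and the pent1 libraries lay at the WT mock level with or without ABA, with the third pent1 ABA library as the highest of those. Its WT difference was 1.18 and its pent1 difference 0.02. NbL14g20560 stood at 36.7, 34.8 and 35.7 CPM in the WT mock libraries and at 101, 96.4 and 73.9 CPM with ABA. Its pent1 levels were 55.5, 37.7 and 52.5 CPM in mock and 57.4, 61.8 and 72.1 CPM with ABA. Here the pent1 ABA libraries lay above the pent1 mock libraries, and the WT ABA libraries were above the rest, the lowest of them only slightly. The WT difference was 1.33 and the pent1 difference 0.39.

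Among the members most abundant in WT mock, NbL03g24450 stood at 43.1, 42.5 and 43.8 CPM in the WT mock libraries and at 87.5, 91.0 and 86.5 CPM with ABA. For pent1, the values were 58.3, 62.4 and 53.4 CPM without ABA and 78.1, 82.7 and 78.6 CPM with it. The groups did not overlap, and each pent1 group was high: the ABA mean of 79.8 ± 2.53 CPM in pent1 was below the 88.3 ± 2.35 CPM of WT (SD, n = 3), while the mock mean was 58.0 ± 4.51 against 43.1 ± 0.628 CPM. The gene met the rule with a mock difference of 0.42 and a pent1 difference of 0.46, both near their limits. NbL07g17390 stood at 38.2, 36.2 and 29.9 CPM in the WT mock libraries and at 79.9, 75.8 and 66.3 CPM with ABA. In pent1 it stood at 42.1, 39.8 and 49.0 CPM in mock and at 54.2, 59.3 and 49.9 CPM with ABA. All 3 pent1 ABA libraries lay above the pent1 mock libraries, and the WT ABA libraries lay above all others. Its differences were 1.08 in WT and 0.32 in pent1.

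Other members were at or below their mock level with ABA in pent1. NbL18g16660 stood at 23.7, 27.4 and 20.8 CPM in the WT mock libraries and at 61.7, 69.1 and 58.6 CPM with ABA. The pent1 libraries held 19.7, 12.8 and 20.9 CPM in mock and 13.0, 11.4 and 20.8 CPM with ABA. Mock and ABA libraries overlapped in pent1, all pent1 ABA libraries lay at or under the lowest WT mock library, and the pent1 difference was -0.23. NbL13g21310 stood at 0.824, 1.18 and 1.18 CPM in the WT mock libraries and at 3.01, 2.24 and 2.80 CPM with ABA. Its pent1 levels were 1.79, 0.929 and 2.15 CPM in mock and 0.407, 0.509 and 1.39 CPM with ABA. Its pent1 difference of -0.74 was the lowest of the 64, but its 3 pent1 ABA libraries rested on 45 counts in all, and the third of them lay among the mock libraries. NbL19g00930 stood at 2.75, 2.64 and 2.14 CPM in the WT mock libraries and at 5.59, 3.94 and 8.29 CPM with ABA. For pent1, the values were 2.14, 1.39 and 1.53 CPM without ABA and 1.52, 1.53 and 1.91 CPM with it. The pent1 libraries lay in 1 range with and without ABA, at about the lowest WT mock library or under it, and the pent1 difference was -0.02.

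Small pent1 differences were seen in further genes. Their mock differences, pent1 minus WT, were 0.13 in NbL11g09940, 0.33 in NbL15g24200 and 0.36 in NbL03g11230. NbL11g09940 stood at 6.59, 4.41 and 5.93 CPM in the WT mock libraries and at 11.6, 13.2 and 11.9 CPM with ABA. In pent1 it stood at 6.33, 6.87 and 5.42 CPM in mock and at 6.96, 4.84 and 7.17 CPM with ABA. Its 9 libraries other than WT ABA shared 1 range, and the pent1 difference was 0.03 against 1.05 in WT. NbL15g24200 stood at 1.70, 0.915 and 1.07 CPM in the WT mock libraries and at 4.38, 3.15 and 3.46 CPM with ABA. The pent1 libraries held 1.94, 1.34 and 1.74 CPM in mock and 1.58, 1.83 and 1.70 CPM with ABA. The WT ABA libraries again lay above the other 9, and the differences were 1.27 in WT and 0.02 in pent1. NbL03g11230 stood at 2.14, 1.40 and 1.44 CPM in the WT mock libraries and at 5.32, 4.96 and 5.38 CPM with ABA. Its pent1 levels were 2.20, 1.70 and 2.91 CPM in mock and 2.85, 3.21 and 1.96 CPM with ABA. Its pent1 mock and ABA libraries overlapped, and its differences were 1.40 and 0.19.

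The highest WT rises among members with a mean of at least 1 CPM over the 12 libraries belonged to NbL08g12760 and NbL17g24670. NbL08g12760 stood at 2.36, 1.18 and 1.66 CPM in the WT mock libraries and at 5.04, 6.08 and 8.51 CPM with ABA. For pent1, the values were 2.20, 2.58 and 2.81 CPM without ABA and 2.79, 2.95 and 4.54 CPM with it. The third library was the highest of its group under ABA in both genotypes, and the pent1 groups overlapped by a narrow margin. The differences were 1.66 and 0.38. NbL17g24670 stood at 0.769, 0.430 and 0.641 CPM in the WT mock libraries and at 3.07, 2.77 and 3.02 CPM with ABA. In pent1 it stood at 0.255, 0.258 and 0.511 CPM in mock and at 0.508, 0.764 and 0.671 CPM with ABA. Both pent1 groups lay near or under WT mock, and from these low levels the pent1 mean went from 0.342 ± 0.147 to 0.647 ± 0.129 CPM (SD, n = 3), a difference of 0.45 with the mock and ABA libraries overlapping.

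**Figure D4:**
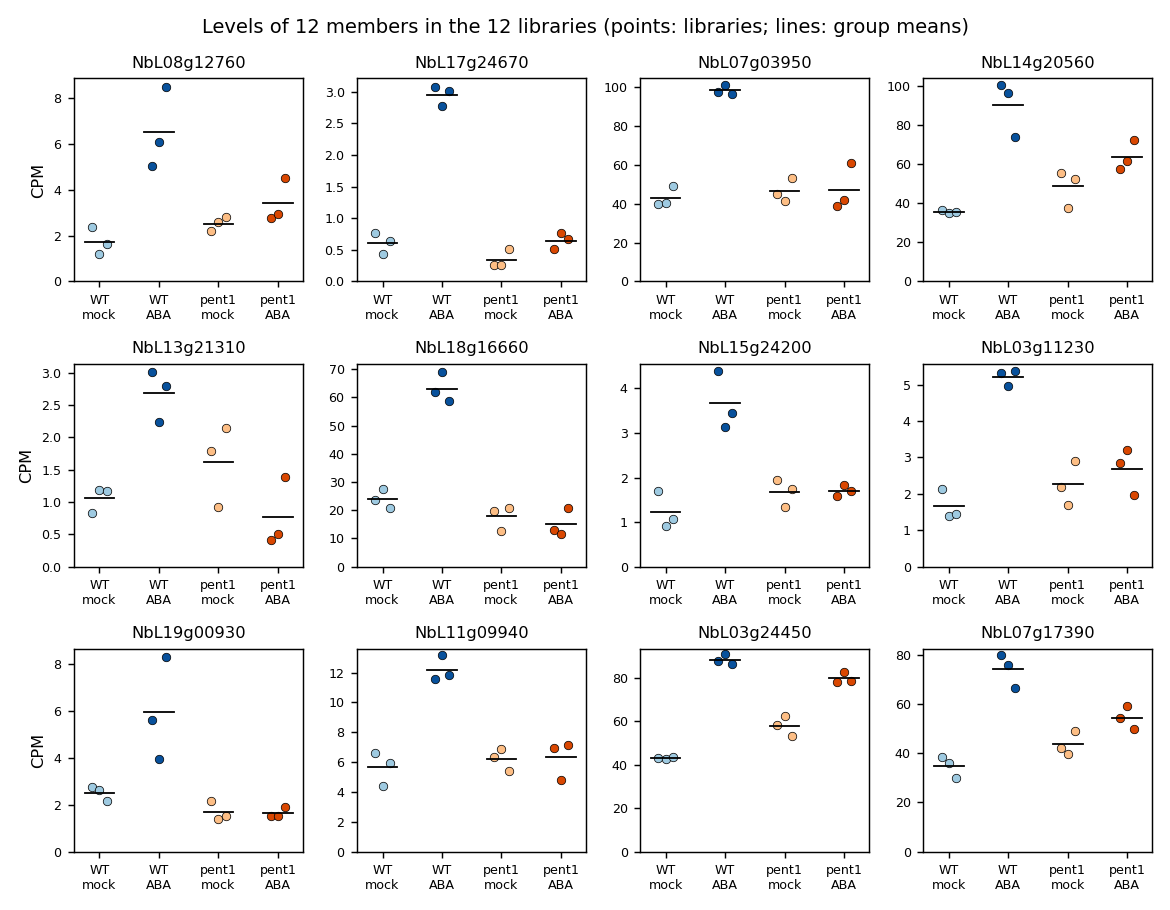
Levels in CPM (vertical axes, each from 0) of 12 members in the 4 groups. Points are libraries and lines are group means. In NbL07g03950, NbL11g09940, NbL15g24200 and NbL18g16660 most pent1 ABA points lie among or below the mock points, whereas in NbL03g24450 all 3 pent1 ABA points (78.1 to 82.7 CPM) lie above the pent1 mock points and close to WT ABA (86.5 to 91.0 CPM).

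Low levels changed what the limit on the pent1 response meant, because the 0.5 CPM added before taking logarithms hides ratios of small numbers. Of the 25 members with a WT mock mean under 1 CPM, 16 had at least 10 counts in pent1 mock, and 8 of these had a pent1 ABA mean at least 1.5 times the mock mean. None of the 39 members at 1 CPM or more in WT mock did. NbL18g16200, with the highest WT difference of all (2.11), shows this, and was picked after its values were seen. It stood at 0.110, 0.215 and 0.160 CPM in the WT mock libraries and at 2.19, 2.61 and 2.25 CPM with ABA. The pent1 libraries held 0.204, 0.0516 and 0.0511 CPM in mock and 0.407, 0.204 and 0.361 CPM with ABA. The pent1 difference was 0.45, under the limit, although the ratio of the means was 3.16, against 14.5 in WT, on 6 and 19 counts in pent1. The genes at 10 CPM or more in WT mock, 14 in all, had a median pent1 difference of 0.38, those from 1 to 10 CPM (25 genes) 0.36 and those under 1 CPM (25 genes) 0.36. Their median differences between the genotypes under ABA were -0.39, -0.56 and -0.73.

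Libraries that took no part in the choice were used to measure the pattern again. The rule was applied to 2 replicate numbers of each group, and the levels of the genes it chose were read in the libraries of the third number. Without replicates 1, 2 and 3, it chose 63, 61 and 89 genes. Of these, 26, 37 and 42 were among the members described above. Of those members, 9 were chosen in all 3 choices and 4 in none. The values are thus those of the genes of each choice, and not of the members as a set. In the libraries left out, the median WT difference of the chosen genes was 0.91, 1.08 and 0.97, against 1.13 in each choice itself. The median pent1 difference went from 0.36, 0.34 and 0.28 in the libraries used to 0.48, 0.52 and 0.45 in those left out, which is at or about the limit of 0.5. Of all genes with a count, the medians in the same libraries lay between -0.02 and 0 for WT and between -0.11 and 0.00 for pent1. The median mock difference, pent1 minus WT, went from 0.24, 0.25 and 0.28 in the libraries used to 0.10, 0.03 and 0.15 in those left out. For all genes with a count it was 0.09, 0 and 0 in the libraries left out.

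A smaller response in pent1 was still seen there. The difference of responses, pent1 minus WT, had medians of -0.42, -0.67 and -0.54 in the libraries left out, against -0.84, -0.97 and -0.93 in those used. It was below 0 in 48 of 63, 54 of 61 and 79 of 89 genes (76.2%, 88.5% and 88.8%), compared with 59.3%, 52.7% and 50.2% of all genes with a count. Most of the other genes raised in WT from close mock levels, those at or above the pent1 limit in the libraries used, shared this direction. Of 670, 586 and 628 such genes, 71.3%, 84.0% and 76.0% were below 0 in the libraries left out, with medians of -0.31, -0.46 and -0.33. The direction was thus common to genes raised in WT, and whether the size differs between these sets was not tested. All 3 limits were met again by 9, 11 and 7 genes, which is 14.3%, 18% and 7.87% of those chosen, against 0.221%, 0.290% and 0.185% of all genes with a count. Of 41657 genes with a count, only 1334 met the WT limit in the full data, which by itself keeps the share of all genes low. The share among the other genes raised in WT was not measured. A pent1 rise above 0 was seen in 52, 54 and 77 of the genes chosen. Each of these values rests on 1 library per group, so it has no replicate error of its own. Over the 3 choices the median pent1 difference was 0.48 ± 0.04 and the median WT difference 0.99 ± 0.09 (SD, n = 3).

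**Figure D5:**
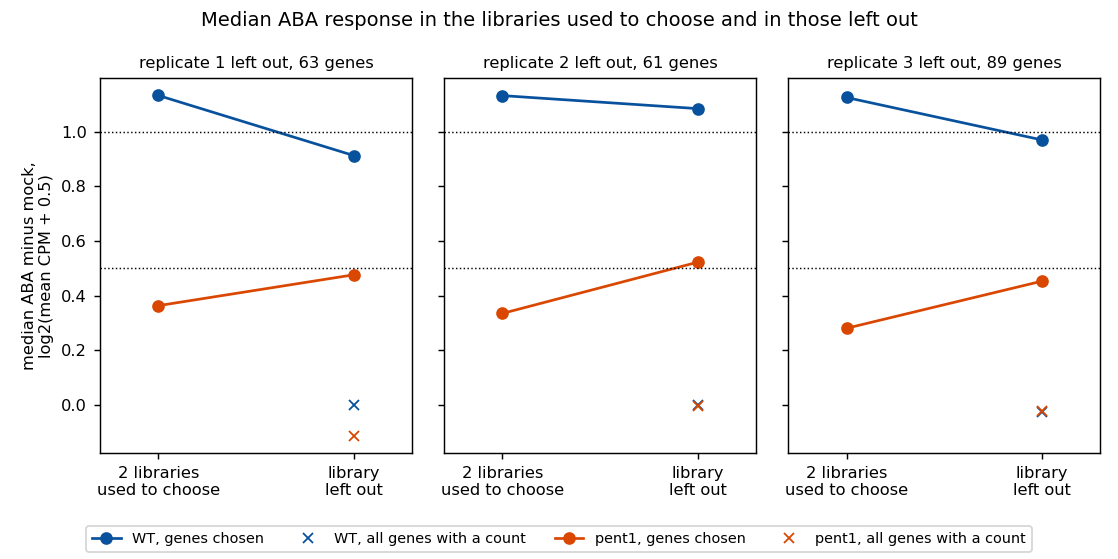
Median log2 difference between ABA and mock of genes chosen on 2 replicate numbers, in the libraries used to choose (left in each panel) and in the libraries left out (right), for WT (blue) and pent1 (orange). Crosses give the medians of all genes with a count, and dotted lines the limits of 1 and 0.5. In the libraries left out the pent1 medians lie at 0.45 to 0.52 and the WT medians at 0.91 to 1.08.

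Single members were unstable. When the rule was applied with each of the 12 libraries left out in turn, it found 56 to 83 genes, of which 45 to 58 were among the 64. In all, 7 of the 64 were found in all 12 of these choices, and they are named here for that reason, after their values were seen. Among them were NbL07g03950, described above, NbL02g01080, NbL09g02710 and NbL13g00980. NbL02g01080 stood at 10.7, 14.3 and 12.5 CPM in the WT mock libraries and at 26.9, 30.4 and 28.4 CPM with ABA. Its pent1 levels were 16.5, 16.2 and 13.7 CPM in mock and 15.9, 20.1 and 18.4 CPM with ABA. The WT ABA libraries lay above all others, and the pent1 groups overlapped within a narrow range. NbL09g02710 stood at 10.5, 11.5 and 12.7 CPM in the WT mock libraries and at 27.1, 28.5 and 24.6 CPM with ABA. For pent1, the values were 17.1, 11.0 and 15.7 CPM without ABA and 13.2, 12.7 and 23.5 CPM with it. Here the third pent1 ABA library stood above the other two and near the WT ABA libraries. The remaining 3, NbL04g04530, NbL07g01760 and NbL17g00680, had 0 to 9 counts in each pent1 group and 40 to 88 in WT ABA.

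Beyond what the rule had used, only the spread between replicates and the IDs were looked at for the members, without a test. Their spread between replicates, as the median SD of log2(CPM + 0.5), was 0.14 in mock and 0.15 with ABA for WT, and 0.18 in mock and 0.21 with ABA for pent1. In the same order the other 659 genes had 0.16, 0.14, 0.19 and 0.21, and all genes with a count 0.11, 0.11, 0.15 and 0.16. By ID, members fell under 19 of the 20 prefixes in the tables, with at most 5 under 1 prefix, and no 2 members had neighbouring IDs.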

How the data were processed

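Whole-number read counts per gene were used as deposited by the authors, without normalization, in a table for each genotype. Per the labels' protocols a strand-specific mRNA kit was used; the tools named per the submitters' processing notes are STAR, cutadapt, FastQC and DESeq2. How reads were counted, whether strand was used and against which build and annotation is not stated there, so near-identical gene copies may share counts. Columns were matched to samples by their labels, and every column was used.

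Members and tests were chosen with earlier results of these data known. CPM were counts scaled to a column total of 1000000. Tests ran across all genes in edgeR 4.0.16 by its quasi-likelihood F-test (R 4.3.3; TMM factors, robust dispersion, filterByExpr, count minimum 10). A call is a Benjamini-Hochberg adjusted p under 0.05. ABA comparisons used the 6 libraries of a genotype, the others all 12. Tests were tried on simulated data first. Replicates differed by more than sampling noise (chi-square over its degrees of freedom 2.03 to 16.5), so each library counted once. p-values measure the spread between these libraries. Also tried were upper-quartile and RLE factors, DESeq2 1.42.0, no filter on low counts, the replicate number as a block, each library left out, pseudocounts of 0.1 and 1 CPM, TMM-scaled CPM and a minimum of 1 CPM in WT ABA.

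Named members had a mean of at least 1 CPM over the 12 libraries. They were, without repeats, 2 for each of: the highest WT rise, the highest WT ABA level, the lowest pent1 difference, the largest gap between the responses, the flattest pent1 difference with WT ABA above the other 9 libraries, and the highest WT mock level. SEs of log2 fold changes were derived from the F statistic.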

Additional observations from a re-analysis of the deposited data

Results flagged for a closer look

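The ABA response differed between the genotypes in 9 of the 12 members named by the rule. Some of the 12 were named for the largest gap between the responses or the lowest pent1 difference. The test was that of the difference of responses, fitted on all 12 libraries. It called 2.17% of all genes with a smaller response in pent1. Since the contrasts that chose the members make up this difference, the values are a description and not independent evidence. NbL13g21310 had the lowest log2 difference, pent1 minus WT, of -2.33 (SE 0.52, edgeR adjusted p = 0.024), NbL18g16660 one of -1.55 (SE 0.32, edgeR adjusted p = 0.0283) and NbL15g24200 one of -1.47 (SE 0.33, edgeR adjusted p = 0.0237). NbL03g11230 had a log2 difference, pent1 minus WT, of -1.34 (SE 0.32, edgeR adjusted p = 0.0308), NbL07g03950 one of -1.10 (SE 0.21, edgeR adjusted p = 0.0137) and NbL11g09940 one of -1.01 (SE 0.23, edgeR adjusted p = 0.0253). NbL14g20560 had a log2 difference, pent1 minus WT, of -0.86 (SE 0.18, edgeR adjusted p = 0.0177), NbL07g17390 one of -0.70 (SE 0.16, edgeR adjusted p = 0.024) and NbL03g24450 one of -0.50 (SE 0.12, edgeR adjusted p = 0.0285). Over the alternatives with a value, the highest adjusted p of edgeR or DESeq2 for these genes was 0.0559 to 0.0912, so that each lost its call in at least 1 of them. NbL07g03950 kept its call in 16 of 17 alternatives, and the others in 8 to 12 of 16 or 17. In each of the 9, the 3 pent1 ABA libraries all lay below the 3 WT ABA libraries. The same held in 50 of the 64 members and in 20.3% of all genes with a count. By the test between the genotypes under ABA, all of the 9 but NbL03g24450 were called lower in pent1. NbL03g24450 was not called there (log2 difference -0.12, SE 0.08, edgeR adjusted p = 0.295). Its pent1 mock level was called higher than WT mock (log2 difference 0.38, SE 0.08, edgeR adjusted p = 0.00187).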

How the results depend on the processing

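The number of genes the rule found was 124 with a pseudocount of 0.1 CPM, of which 32 were among the 64, and the cause was not tested. It was 49 with 1 CPM (31 shared), 54 with TMM-scaled CPM (46 shared), 56 with a minimum of 1 CPM in WT ABA and 56 to 83 with 1 library left out. The median differences in the left-out replicate were 1.10 for WT and 0.40 for pent1 with a pseudocount of 1 CPM.

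With 1 library left out, the number of members called was 4 to 14 for ABA in pent1, 6 to 17 for the mock comparison of genotypes and 2 to 37 for the difference of responses. All genes called in these fits numbered 2345 to 6011, 8558 to 12682 and, with a smaller response in pent1, 251 to 2864. The numbers of members called under RLE and upper-quartile factors, DESeq2 and no filter stayed within 1.5 times the values reported. For the difference of responses, DESeq2 called 22 of 34 members with an adjusted p, against 19 of 61. All genes called with a smaller response in pent1 numbered 874, 614, 1253 and 703 in these 4 settings, against 737. Equal replicate numbers were not taken as pairs in the main tests. For samples of equal number, the correlations of deviations from the group means ran from -0.07 to 0.22. Whether such samples shared an effect was not tested. With the replicate block, 60, 13, 13, 40 and 20 members were called, against 60, 11, 13, 39 and 19 without it. The order is ABA in WT, ABA in pent1, mock between genotypes, ABA between genotypes and the difference of responses. All genes called likewise numbered 6193, 4087, 11583, 5249 and 967 with the block, against 6156, 3678, 11158, 4982 and 737 without it. For the 12 named members no alternative turned the direction of the difference of responses. With 1 library left out, a call was lost in 52 fits, all of them of the 9 members called with all libraries, each fitted 12 times. The other named members had no call to lose, and a call was gained in 4 of their fits.

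Low counts limited what could be tested. The filter left out 14 of the 64 members in pent1, 4 in WT and 3 in the comparisons over 12 libraries. In WT, some members passed the filter through WT ABA alone. Library totals were 19371555 to 19678708 counts in pent1 and 18199288 to 18758918 counts in WT. Why more members were left out in pent1 was not tested.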

Other observations

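Of the 64 members, 3 had no count in the WT mock libraries, which allows up to 3 counts over the group. NbL05g09810 had 39 counts in WT ABA, at least 13.1-fold higher than that floor, and 11 and 15 counts in pent1 mock and ABA. NbL01g17750 had 35 counts in WT ABA, at least 11.7-fold higher, and 2 and 14 counts in pent1. NbL03g03860 had 29 counts in WT ABA, at least 9.72-fold higher, and 1 and 8 counts in pent1. All 3 thus had counts in pent1 mock, and WT ABA held more counts than pent1 ABA in each. The folds in WT leave out the sampling error of the WT ABA counts. In the same order, the ratio of the pent1 ABA mean to the pent1 mock mean was 1.35, 7.02 and 7.99, on these few counts. The pent1 ABA libraries all lay above the pent1 mock libraries in NbL01g17750 and NbL03g03860, and overlapped them in NbL05g09810.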
